A study of Mus musculus with 2 samples.

Results

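Polycomb repressive complex 1 (PRC1) is represented here by 9 genes for its subunits: the E3 ubiquitin ligases Rnf2 and Ring1, the chromobox genes Cbx2, Cbx7 and Cbx8, the Polycomb group RING finger genes Pcgf2, Bmi1 and Pcgf6, and Rybp. A gene's probe sets were those that the platform annotation assigns to that symbol and to no other. By this rule 8 of the 9 genes had probe sets, 20 in all of 45101 on the array, against 18194 genes named in the whole series. Rybp had none of its own: 2 probe sets are assigned jointly to Rybp and its pseudogene Rybp-ps, and their values are not reported as Rybp.

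The RNA came from 1 mouse embryonic stem (ES) cell line, called ESSP9 and labelled with the genotype Del1.3MbWBS, a 1.3 Mb deletion of the region lost in the human Williams-Beuren syndrome (WBS). Both Affymetrix arrays belong to this 1 group, and the labels number them as biological replicates 1 and 2 without saying whether separate cultures were used, so the spread between them may be technical. The cells grew with leukaemia inhibitory factor on feeder cells. The labels do not say how many copies of the region were lost, and no line without the deletion was analysed here, so nothing below compares genotypes. In the mouse reference (GRCm38.p6) the genes at the ends of the WBS segment, Gtf2i and Fkbp6, lie on chromosome 5, and 0 of the 9 PRC1 genes lie on that chromosome.

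PRC1 is a group of chromatin complexes that add ubiquitin to histone H2A and keep developmental genes silent. Each complex is built on RNF2 or RING1, the catalytic subunits, bound to a single PCGF protein. Canonical complexes, with PCGF2 or BMI1, also hold a CBX protein, whose chromodomain binds the methyl mark that Polycomb repressive complex 2 (PRC2) places on histone H3; variant complexes, such as those with PCGF6, hold RYBP or YAF2 instead. In mouse ES cells CBX7 is known as the main CBX protein of canonical complexes, and CBX2 and CBX8 are known to rise on differentiation.

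Promoter sequences show what the members share at the DNA level beside the array values. RefSeq promoters (GRCm38.p6), each 300 bases from 250 before to 50 after a transcript's start, matched 7 of the 9 genes by symbol; Cbx2 and Rybp had no entry. CpG dinucleotides are the sites to which KDM2B, a subunit of a variant PRC1, binds when they are unmethylated. The promoters of both catalytic subunits are shown first, with every CpG in capitals. That of Rnf2 lies at chr1:151500942-151501241 and that of Ring1 at chr17:34024631-34024930, both on the minus strand.
Rnf2: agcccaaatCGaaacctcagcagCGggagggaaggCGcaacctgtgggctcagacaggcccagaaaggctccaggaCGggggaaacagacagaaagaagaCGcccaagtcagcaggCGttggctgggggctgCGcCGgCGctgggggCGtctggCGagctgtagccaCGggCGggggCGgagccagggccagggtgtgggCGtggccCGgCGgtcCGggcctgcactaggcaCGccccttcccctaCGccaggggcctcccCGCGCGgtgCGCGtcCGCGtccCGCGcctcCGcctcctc
Ring1: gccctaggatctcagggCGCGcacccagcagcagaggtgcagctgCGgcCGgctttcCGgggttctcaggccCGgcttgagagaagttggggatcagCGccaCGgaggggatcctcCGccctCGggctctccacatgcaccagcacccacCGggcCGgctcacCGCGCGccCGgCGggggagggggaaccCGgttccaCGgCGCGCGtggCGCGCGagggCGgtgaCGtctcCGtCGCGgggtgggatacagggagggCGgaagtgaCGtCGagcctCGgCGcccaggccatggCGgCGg

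The Ring1 promoter held 37 CpG and the Rnf2 promoter 30, more than 94.4% and 88.3% of the 32851 RefSeq promoters of that length. Cbx7 had 33, Cbx8 24, Bmi1 23, Pcgf6 22 and Pcgf2 10. The median over these 7 was 24, against 7 over all promoters, 20 over the 12832 promoters of genes above background on these arrays and 6 over the 5278 of genes that were not. Pcgf2 was the 1 member below the median of genes above background. Its table entry starts 2786 bases inside the gene span of the reference and that of Cbx7 38497 bases inside, so both counts are of internal transcript starts; the other 5 entries start within 33 bases of the gene's 5′ end.

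**Figure D1:**
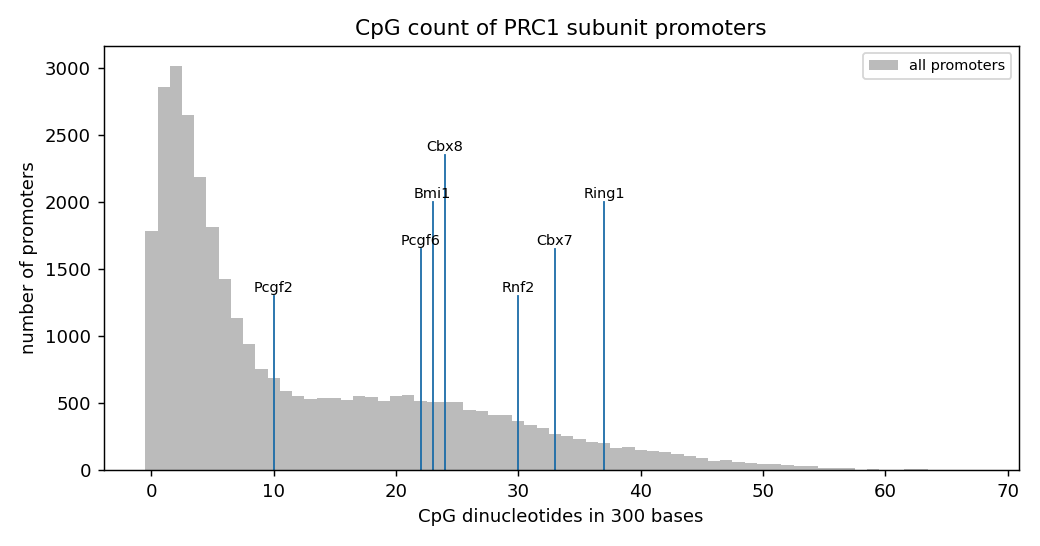
CpG dinucleotides per 300-base promoter (x axis) against the number of RefSeq promoters with that count (y axis, grey bars); blue lines mark the 7 PRC1 genes, and line heights only keep the names apart. Pcgf2 stands at 10 and the other 6 between 22 and 37.

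Besides CpG, 4 short motifs were searched on both strands; CACGTG and GGGCGG each contain a CpG, and none of the 4 contains another. The E-box CACGTG, bound by MAX and its partners, among them the variant PRC1 subunit MGA, was in 3 of the 7 promoters, those of Bmi1, Pcgf2 and Cbx8, 1 each; it was in 7.15% of all promoters and 9.88% of those of genes above background. The GC box GGGCGG, bound by SP1, was in all 7, against 35.7% of all promoters and 61.6% of those of genes above background. TATAAA was in 0 of 7, against 13.6% of all promoters and 7.50% of those of genes above background. CCAAT was in 2 of 7, Cbx7 and Cbx8, against 37.4% of all promoters and 37.5% of those of genes above background. The E-box promoters are printed with the motif in capitals, a set chosen after the counts were seen, to show where the shared motif lies: Bmi1 at chr2:18676768-18677067 on the plus strand, Pcgf2 at chr11:97699599-97699898 and Cbx8 at chr11:119040864-119041163, both on the minus strand. The motif's first base lies at -215 from the start in Bmi1, -137 in Pcgf2 and -98 in Cbx8. A match describes the letters only.
Bmi1: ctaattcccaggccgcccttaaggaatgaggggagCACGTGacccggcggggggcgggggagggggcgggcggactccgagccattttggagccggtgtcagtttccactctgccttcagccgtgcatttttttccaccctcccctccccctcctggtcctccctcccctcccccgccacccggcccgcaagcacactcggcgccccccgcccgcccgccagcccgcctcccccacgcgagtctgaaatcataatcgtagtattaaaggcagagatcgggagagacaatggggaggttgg
Pcgf2: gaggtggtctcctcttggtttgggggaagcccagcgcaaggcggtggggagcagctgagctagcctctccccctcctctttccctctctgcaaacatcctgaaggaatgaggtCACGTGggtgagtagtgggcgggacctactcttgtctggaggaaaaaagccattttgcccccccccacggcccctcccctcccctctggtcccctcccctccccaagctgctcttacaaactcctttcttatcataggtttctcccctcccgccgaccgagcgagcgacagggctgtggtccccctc
Cbx8: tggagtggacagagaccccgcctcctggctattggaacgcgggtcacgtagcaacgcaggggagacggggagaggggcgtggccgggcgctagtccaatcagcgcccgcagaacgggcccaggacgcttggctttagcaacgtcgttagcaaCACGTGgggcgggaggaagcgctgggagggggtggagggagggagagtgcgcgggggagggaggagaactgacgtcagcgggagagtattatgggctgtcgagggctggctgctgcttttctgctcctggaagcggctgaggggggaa

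All 8 measured PRC1 genes were above background on both arrays, on the brightest probe set of each; over all genes 68.4% were. Above background means that the mean of the arrays exceeded 5.59, and each array its own limit (5.60 and 5.58), the 95th percentile of 38 olfactory receptor genes taken as not transcribed in this culture. Of the members' 20 probe sets 14 were above it, against 61.8% of all 34958 probe sets with 1 gene symbol. The gene count is helped by choosing the brightest of several probe sets: the members had 2.5 each on average, all genes 1.92 and the olfactory receptors 1.13. Values are deposited log2 values from RMA, a method that corrects background, equalises the arrays' distributions and summarises the probes of a probe set. They are given per array or as mean ± SD (n = 2), and since probes differ in affinity, no gene's level is ranked against another's.

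Markers of more than 1 cell type were measured, since the RNA was that of the whole culture. Pluripotency markers were above background in 8 of 8 (Pou5f1 12.63 ± 0.020, Nanog 12.11 ± 0.063, Sox2 12.11 ± 0.047, Klf4 11.23 ± 0.044), with values from 9.76 to 14.08 on replicate 1 and from 9.77 to 14.10 on replicate 2. Fibroblast markers were above background in 9 of 9 (Col1a1 12.67 ± 0.021, Col1a2 14.87 ± 0.0061, Col3a1 14.86 ± 0.0025, Thy1 10.78 ± 0.019), from 10.76 to 14.88 on replicate 1 and from 10.79 to 14.87 on replicate 2, and none was near background. Blood cell markers passed in 3 of 5 (Cd3e 6.56 ± 0.023, Lyz2 9.33 ± 0.010, Csf1r 6.73 ± 0.19), whereas Ptprc, the pan-leukocyte gene, was at 4.05 ± 0.13 and Itgam at 3.92 ± 0.077. How much of the RNA of each PRC1 subunit or target came from ES cells and how much from feeder cells was not tested, and in RNA of a whole culture fewer cells of a type and less RNA per cell cannot be told apart.

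The catalytic subunit gene Rnf2, also called Ring1B, gave 10.72 on replicate 1 and 10.77 on replicate 2 with probe set 1424873_at (10.74 ± 0.035), and 10.47 on each array with 1451519_at, which was designed on the same target sequence. Its other 3 probe sets read far lower: 1448041_at at 6.08 and 5.97, 1448043_x_at at 5.79 on both, and 1448042_s_at at 5.31 and 5.21, the last below the threshold. The annotation names no target sequence for these 3, and the suffixes _s_at and _x_at mark probe sets whose probes can match more than 1 transcript. Rnf2 thus spanned 5.48 log2 units between its highest and lowest probe set, where the 465 genes with 5 probe sets spanned a median of 4.12. Rnf2 occupies chr1:151469398-151500991. Ring1 (Ring1A), its paralog, lies at chr17:34020792-34024680 and had 1 probe set, 1422647_at, at 7.29 on replicate 1 and 7.38 on replicate 2 (7.33 ± 0.057). Both catalytic genes were therefore measured above background, Ring1 by 1.74 log2 units and Rnf2 by 5.15.

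Of the chromobox genes, Cbx7, the chromodomain subunit typical of ES cells, was read at 8.88 and 8.96 on 1433557_at (8.92 ± 0.052), 3.33 log2 units above the threshold. Its other probe sets, 1420039_s_at at 4.93 and 5.07 and 1449713_at at 4.23 and 4.30, share 1 target sequence and were not above background on either array. The call for Cbx7 rests on 1 probe set of 3, and with the median of its probe sets (5.00) it was below the threshold of 5.30 made the same way. The gene spans 55340 bases, chr15:79915804-79971143.

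Cbx2 and Cbx8 are neighbours on chromosome 11, at chr11:119023019-119031275 and chr11:119036303-119040913, with 5027 bases between them. Cbx2 gave 6.80 on replicate 1 and 7.07 on replicate 2 with 1434116_at (6.94 ± 0.19), and 4.21 and 4.09 with 1422059_at, which was below the threshold. The median of the Cbx2 probe sets, 5.54, lay between 5.30 and 5.59. Cbx8 gave 6.91 and 7.07 with 1419198_at (6.99 ± 0.12), and 4.98 and 5.03 with 1419199_at, also below it. The Cbx8 probe sets were designed on the same target sequence, so the annotation alone does not tell them apart. In all 3 chromobox genes 1 probe set was above background and the rest were not.

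The PCGF genes encode the partners that set the type of complex. Pcgf2 (Mel18), a partner in canonical complexes, gave 6.31 and 6.43 on 1420645_at (6.37 ± 0.083), 0.78 log2 units above it, and 4.95 and 4.92 on 1456330_at, below it. It lies at chr11:97688821-97702434. Bmi1 (Pcgf4), the paralog of Pcgf2 known for silencing the Cdkn2a locus, gave 9.75 and 9.78 on 1417493_at (9.77 ± 0.022) and 8.92 and 8.86 on 1448733_at. Both Bmi1 probe sets, designed on 1 target sequence, were above background, and their means lay 0.87 apart against a median of 1.34 for the 4694 genes with 2 probe sets. Bmi1 lies at chr2:18677018-18686629.

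Pcgf6, the partner that defines the MGA and MAX containing variant complex, was above background on all 3 of its probe sets. They gave 10.15 and 10.05 (1424081_at, 10.10 ± 0.065), 8.72 and 8.50 (1454120_a_at) and 7.20 and 7.26 (1432108_at). The last pair shares a target sequence, and the span over the 3 was 2.87, beside a median of 2.66 for the 2366 genes with 3 probe sets. Pcgf6 lies at chr19:47033617-47050939. Among the 7 members with several probe sets, 5 had some above and some not above background (Rnf2, Cbx2, Cbx7, Cbx8 and Pcgf2); over all 9012 genes with several, 43.5% did.

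**Figure D2:**
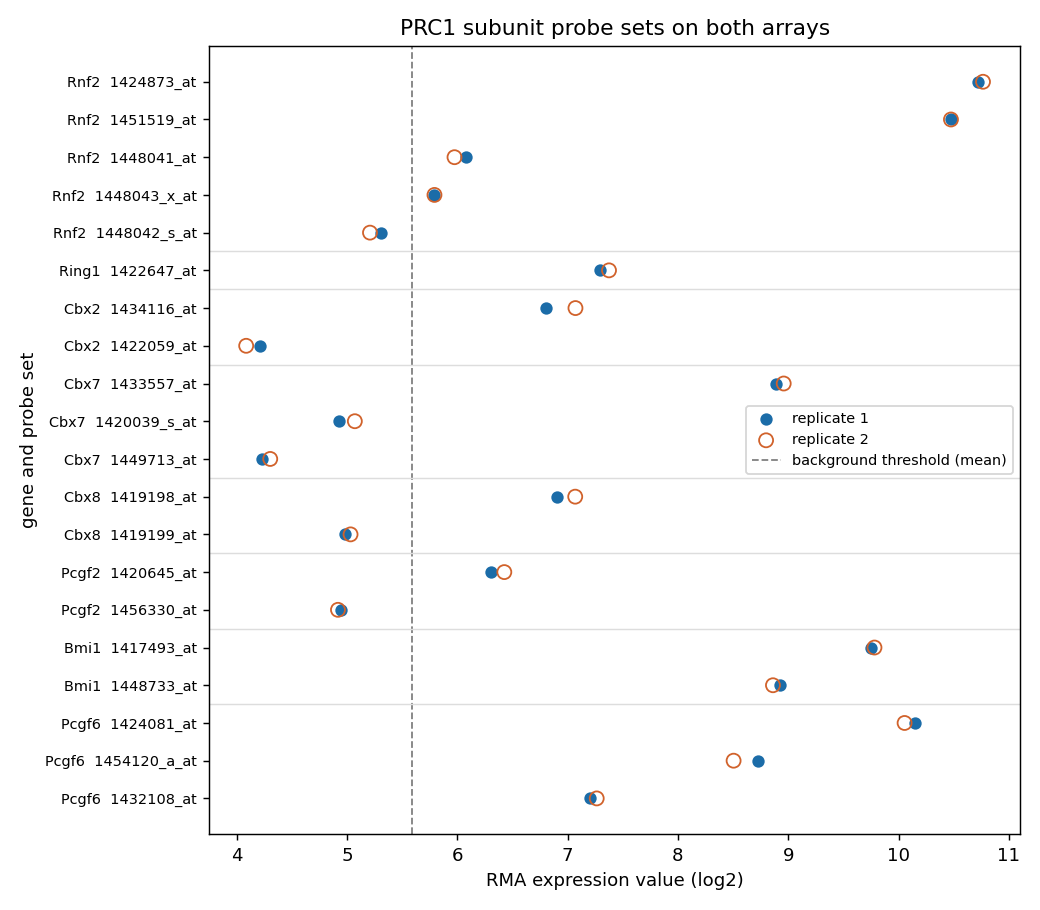
RMA log2 value (x axis) of each of the 20 PRC1 probe sets (y axis) on replicate 1 (filled blue) and replicate 2 (open orange), with the background threshold of 5.59 as a dashed line. The arrays nearly coincide for each probe set, while probe sets of 1 gene lie up to 5.48 log2 units apart.

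The replicates gave close values for every PRC1 probe set. None of the 20 differed by 1 log2 unit or more (0.00443% of all probe sets did), and none by 1.5-fold or more (0.191% of all). Cbx2 differed most, by 0.27 log2 units on 1434116_at, higher in replicate 2; the SD of the difference over probe sets of like level (1 of 20 equal bins of the mean) was 0.14. Next was Pcgf6 on 1454120_a_at, lower in replicate 2 by a difference of -0.22 where that SD was 0.096; its brighter probe set 1424081_at gave -0.092 and 1432108_at gave 0.064, so the probe sets of Pcgf6 did not share a direction.

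On the brightest probe set, 7 of the 8 genes were higher in replicate 2 (all but Pcgf6), against 53.6% of all genes. The median difference was 0.078 log2 units, beside 0.0093 over all genes, whose differences had an SD of 0.14. Over all 20 probe sets 13 were higher in replicate 2, with a median of 0.040 beside 0.0070 over all 45101. The 7 of 8 stayed 7 of 8 with each array centred on its median and with loess of the difference against the mean. With loess the members' median was 0.059, and 12 of the 20 probe sets were higher in replicate 2, beside 49.9% of all genes on the brightest probe set. These describe 2 arrays of 1 group, and no test was made of them.

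**Figure D3:**
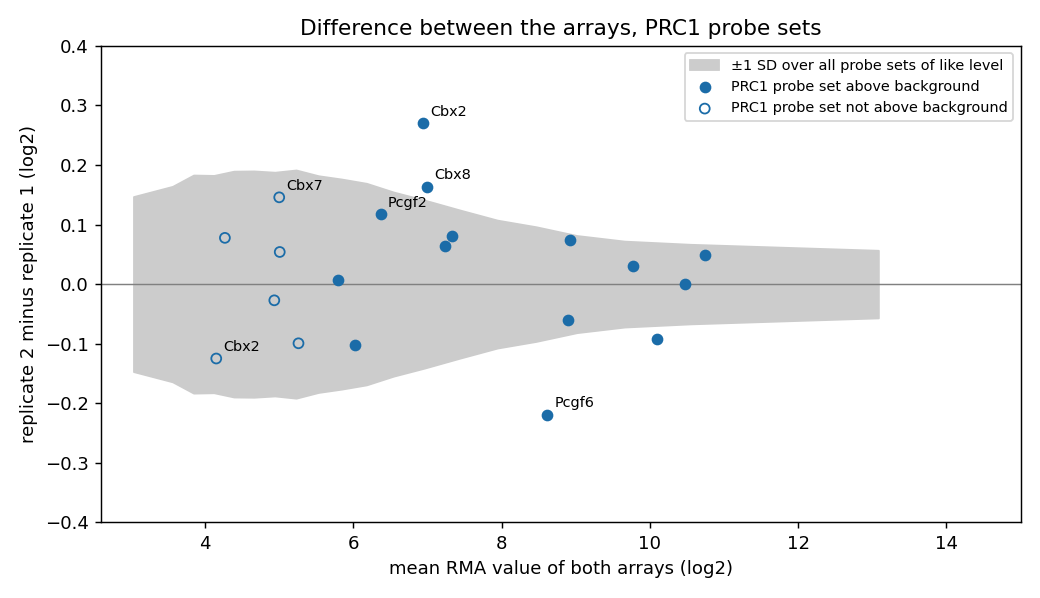
Difference between the arrays, replicate 2 minus replicate 1 in log2 units (y axis), against the mean of both (x axis) for the 20 PRC1 probe sets; the grey band is ±1 SD of the difference over all probe sets of like level. Cbx2 at 0.27 and Pcgf6 at -0.22 lie farthest from 0, and 16 of the 20 probe sets lie inside the band. The share of all probe sets inside it was not counted, so the 16 describe the plot only.

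The other subunits of canonical PRC1 were also above background: 6 of 6 measured, beside 68.4% of all genes. Their median difference between replicates was -0.0084. Here too the brightest of a gene's probe sets was used, which helps the count. Phc1, a Polyhomeotic protein that lets complexes polymerise, was at 10.71 ± 0.033, Phc2 at 9.72 ± 0.015 and Phc3 at 8.68 ± 0.020. The remaining chromobox gene measured, Cbx6, was at 9.51 ± 0.055, and the Scm homologs Scmh1 and Scml2 at 7.80 ± 0.049 and 8.92 ± 0.0033. Cbx6 was read on an _s_at and Phc2 on an _x_at probe set, whose probes can match more than 1 transcript.

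Of 14 variant PRC1 subunits, 13 were above background, beside 68.4% of all genes, with a median difference of -0.00023. Their count was helped by the choice of the brightest probe set, of up to 7 in Usp7. The PCGF genes were at 6.76 ± 0.017 for Pcgf1, 10.11 ± 0.013 for Pcgf3 and 9.04 ± 0.060 for Pcgf5. Yaf2, the paralog of Rybp, was at 10.15 ± 0.0037; of the pair, Yaf2 was the 1 gene measured. Around PCGF1, the CpG-binding Kdm2b was at 10.80 ± 0.074, the corepressor Bcor at 8.04 ± 0.019 and the ubiquitin protease Usp7 at 11.84 ± 0.0040, while Bcorl1, the paralog of Bcor, gave 5.54 and 5.43 and was the 1 gene not above background. The values of Kdm2b, Bcor and Usp7 are from _s_at probe sets, whose probes can match more than 1 transcript.

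Partners of PCGF6 were measured too: L3mbtl2 was at 9.04 ± 0.014, the repressor E2f6 at 8.95 ± 0.094, Mga at 9.34 ± 0.023 and Wdr5 at 10.81 ± 0.027. Auts2 and Dcaf7, of the complexes with PCGF3 and PCGF5, were at 7.51 ± 0.070 and 10.39 ± 0.018. Every PCGF type of complex, from Pcgf1 to Pcgf6 with Bmi1 as Pcgf4, thus had its gene above background on the brightest probe set. For Pcgf2 (6.37) and Pcgf1 (6.76) the pass was at values near those of the blood cell markers Cd3e (6.56) and Csf1r (6.73). The other Pcgf2 probe set (4.93) was not above background.

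**Figure D4:**
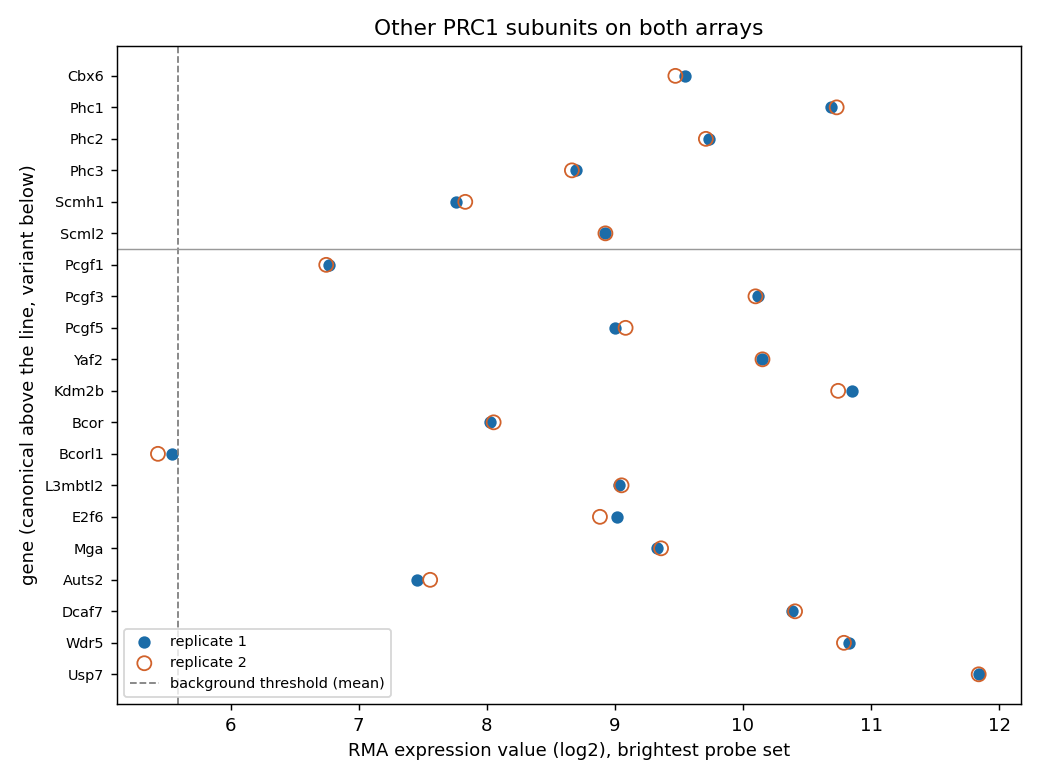
RMA log2 values (x axis) of the brightest probe set of the other canonical and variant PRC1 genes (y axis) on replicate 1 (filled blue) and replicate 2 (open orange); the dashed line is the threshold of 5.59. Bcorl1 is the 1 gene left of the line, and E2f6 shows the widest gap between arrays, -0.13.

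Enzymes that remove ubiquitin from H2A, and their cofactors, were above background in 6 of 6: Bap1 at 10.05 ± 0.029, Asxl1 at 9.83 ± 0.012, Asxl2 at 8.36 ± 0.0057 and Usp16 at 9.10 ± 0.012 among them. So were 8 of 8 PRC2 genes, whose mark recruits the CBX proteins, including the methyltransferase genes Ezh2 (10.70 ± 0.057) and Ezh1 (7.68 ± 0.031), Suz12 (11.11 ± 0.0075) and Eed (12.15 ± 0.0074). Both counts stand beside 68.4% of all genes and rest on the brightest probe set, of 6 in Suz12. The Suz12 probe set carries the suffix _s_at, so its probes can match more than 1 transcript.

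Genes known as Polycomb targets in ES cells were above background in 8 of 18 measured, with 68.4% of all genes as the background. Cdkn2a and Cdkn2b, cell cycle inhibitor genes that PRC1 silences in several cell types, were at 9.24 ± 0.090 and 10.60 ± 0.0062, Gata6 at 7.72 ± 0.013 and Pax3, close to the threshold, at 5.84 ± 0.085. Gata4 (5.45 ± 0.050) and Pax6 (5.54 ± 0.062) were not above it. Cdx2 (5.74 ± 0.13) and Foxa2 (5.72 ± 0.029) were above background but also close to the threshold. Hand1 (5.65 ± 0.19) was not above background, because its value on replicate 2 (5.52) was below the limit of that array.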

How the data were processed

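Total RNA of 2 samples was measured on arrays. What the authors deposited is 1 log2 value per probe set and array, made with RMA per the submitters' processing notes; the version used and the set of arrays normalized jointly are not given in the sources. Quantile normalization within RMA hides a change common to most genes. There is no read depth, and precision is limited by having 2 arrays. Among 45101 probe sets, a single gene symbol was given for 34958, several for 932 and none for 9211. Gene identifiers of 8 of 8 measured members matched the reference table. The brightest probe set stood for a gene.

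With 1 group, no test between conditions was made. All probe sets of the members are named, and every gene of both lists of other PRC1 subunits. Other lists give the first 4 genes above background and the first 2 below it, in list order. Cdx2, Foxa2 and Hand1 are named besides, because they lie close to the threshold. The genes, lists and motifs were chosen with earlier results of these data known. Alternatives were a 99th percentile, 37 vomeronasal and taste receptors, a threshold at the median of all probe sets, unshared probe sets, each array alone, the median of a gene's probe sets, centring, loess (fraction 0.3), 1.5-fold and leaving out dim probe sets. A planned comparison of protein sequences was not run. Python 3.11.15, pandas 2.3.3, numpy 2.4.6 and statsmodels 0.14.6 were used. Columns not used numbered 0.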

Additional observations from a re-analysis of the deposited data

How the results depend on the processing

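Of the 21 alternative values for the counts and for the largest difference, each count stayed within 1.5 times that reported, and the difference moved by less than the SD over probe sets of like level. That bound is wide, since 6 genes in place of 8 lies within it. Leaving out dim probe sets could change neither the largest difference, read on a Cbx2 probe set above background, nor a count of 0 past 1 log2 unit. The count of PRC1 genes above background was 8 of 8 under each other reference or percentile, with each array alone and with unshared probe sets, whose threshold was 5.30. It was 7 of 8 with the median of a gene's probe sets and a threshold made the same way (5.30), where Cbx7 was not above background, and 6 of 8 with the threshold kept at 5.59, an alternative chosen after seeing the data, where Cbx2 and Cbx7 were not. The probe set count of 14 of 20 became 12 with vomeronasal and taste receptors (threshold 6.08) and 12 at a threshold set by the median of all probe sets (6.01): 1448043_x_at and 1448041_at of Rnf2 no longer passed, the second at 6.01 only through replicate 2 (5.97). With unshared probe sets it was 12 of 16. These alternatives were run on the PRC1 members only, not on the other gene lists. The largest difference between replicates was 0.27 with centring and 0.26 with loess. The median of a gene's probe sets cannot exceed the brightest; it was lower by 0.44 to 4.71 log2 units in the 7 members with several, most in Rnf2. No paired analysis was possible because there is 1 group. Signal over background limits the call of Pcgf2, 0.78 log2 units above the threshold. Blood cell markers also passed that threshold in 3 of 5: Cd3e (6.56), Csf1r (6.73) and Lyz2 (9.33). A pass at values like those of Cd3e and Csf1r is therefore taken as a weak sign of transcription, for Pcgf2 (6.37), Pcgf1 (6.76), Cbx2 (6.94) and Cbx8 (6.99) alike. The values of Ring1 (7.33) and Cbx7 (8.92) also fall within the range of these passing markers. Where the signal of the blood cell markers came from was not tested.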
